A study of Mus musculus with 8 samples.

Results

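The genes described here are 43 genes that work in mitosis and on the mitotic spindle, chosen by symbol from the 27179 genes of the deposited expression table, and all 43 were found in it. They were compared between 2 groups of 4 tumors. The cxC26 scr group came from cachectic C26 colon carcinoma cells carrying a scrambled CRISPR/Cas9 guide RNA. The cxC26 IL6KOs1 group came from the same line after disruption of the gene for IL-6 with a lentiviral CRISPR/Cas9 vector and consisted of the progeny of a single cell subclone (s1), so that loss of IL-6 and any other property of this subclone cannot be told apart. Cells of both groups were grown under the skin of male CD2F1 mice aged 13 to 18 weeks, which were kept until they became cachectic, by the study's general rule at a body weight loss above 15%. In a growth experiment of the study in this mouse strain, the knockout cells were inoculated in larger number than the scr cells and the tumors grew later. The inoculum and the day of collection of the sequenced tumors are not given in the sources used here. The groups are called scr and knockout tumors from here on.

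Mitosis is driven by the kinase Cdk1 bound to a B-type cyclin. It condenses the chromosomes, attaches them through kinetochores to a spindle of microtubules, and holds anaphase back by the spindle assembly checkpoint until every chromosome is attached, after which the anaphase-promoting complex marks securin and cyclin B for destruction. Most of these genes are transcribed only in the later part of the cell cycle, under the MuvB complex with B-Myb and Foxm1, and are shut off in resting cells. Their mRNA levels in a tumor are therefore widely read as a measure of how many cells divide. In bulk RNA, fewer dividing cells and less mRNA per dividing cell cannot be told apart.

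The libraries held between 14158989 and 17048062 reads on genes. Il6 itself had between 326 and 438 reads in the scr tumors and between 56 and 86 in the knockout tumors. Among 12 markers of carcinoma epithelium, Krt20 was abundant with 17390 to 22185 reads per tumor, whereas Krt19, Cldn4, Vil1 and Cdx1 had 3 reads or fewer in every tumor, and Epcam, Krt8, Cldn7 and Muc2 stayed under the expression filter. Cdx2, an intestinal transcription factor, had between 17 and 34 reads in the scr tumors and 1, 0, 0 and 0 in the knockout tumors. Krt18 rose from 21 to 30 reads in the scr to 140 to 282 reads in the knockout tumors, and Cdh1 from 17 to 37 to 45 to 87 reads. Krt20 was thus the only epithelial marker that was abundant in both groups.

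Promoter sequences are shown for 6 of the genes because mitotic genes are known to share short promoter elements, and because these 6 include genes that were higher and genes that were lower in the knockout tumors. Capitals mark the words TTTGAA and TTTAAA, the cell cycle homology region (CHR) bound by MuvB, and the word CCAAT, bound by NF-Y, on either strand. The 6 are the largest calls in each direction among genes whose promoter window held such a word. That each of them holds a word was therefore fixed by the choice. Nusap1 was passed over because its window held neither word, and Aurkb because it had no window. Each window runs from 200 bases before to 30 bases after the RefSeq transcription start on GRCm38.p6, in the direction of transcription. The windows are chr9:70421525-70421754 for Ccnb2 (reverse strand), chr19:37376182-37376411 for Kif11 (forward strand), chr10:69352883-69353112 for Cdk1 (reverse), chr2:127831830-127832059 for Bub1 (reverse), chr11:99024160-99024389 for Top2a (reverse) and chr7:135716350-135716579 for Mki67 (reverse).
Ccnb2: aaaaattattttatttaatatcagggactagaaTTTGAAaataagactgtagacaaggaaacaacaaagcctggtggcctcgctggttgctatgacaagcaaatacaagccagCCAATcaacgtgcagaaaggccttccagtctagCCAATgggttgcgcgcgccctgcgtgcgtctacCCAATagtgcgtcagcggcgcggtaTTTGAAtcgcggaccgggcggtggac
Kif11: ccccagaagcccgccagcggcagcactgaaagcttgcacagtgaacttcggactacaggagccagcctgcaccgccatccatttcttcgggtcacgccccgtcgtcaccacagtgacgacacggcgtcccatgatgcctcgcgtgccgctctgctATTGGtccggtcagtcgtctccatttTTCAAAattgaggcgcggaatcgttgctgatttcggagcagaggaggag
Cdk1: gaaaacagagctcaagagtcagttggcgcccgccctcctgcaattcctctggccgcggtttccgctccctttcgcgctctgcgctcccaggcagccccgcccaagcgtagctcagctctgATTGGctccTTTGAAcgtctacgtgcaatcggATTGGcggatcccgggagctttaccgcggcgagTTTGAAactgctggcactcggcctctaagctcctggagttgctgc
Bub1: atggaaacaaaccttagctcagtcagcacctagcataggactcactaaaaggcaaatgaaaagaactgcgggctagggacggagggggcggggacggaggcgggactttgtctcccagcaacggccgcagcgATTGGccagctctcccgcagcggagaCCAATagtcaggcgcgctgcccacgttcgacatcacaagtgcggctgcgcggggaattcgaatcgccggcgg
Top2a: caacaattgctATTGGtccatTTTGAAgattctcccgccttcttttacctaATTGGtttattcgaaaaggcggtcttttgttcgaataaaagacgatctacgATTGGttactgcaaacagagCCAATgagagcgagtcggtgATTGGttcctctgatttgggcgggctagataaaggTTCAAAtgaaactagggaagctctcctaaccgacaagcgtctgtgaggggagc
Mki67: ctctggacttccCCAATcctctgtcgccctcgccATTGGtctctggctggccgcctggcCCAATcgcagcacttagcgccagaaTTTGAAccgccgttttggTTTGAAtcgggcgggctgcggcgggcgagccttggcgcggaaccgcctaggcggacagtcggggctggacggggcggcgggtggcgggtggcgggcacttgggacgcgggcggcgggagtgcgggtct
In the Ccnb2 promoter the 3 CCAAT words start 33 bases apart from one another, and a CHR word lies just after the transcription start. Kif11 has 1 word of each kind within the last 45 bases before its start. Bub1 has 2 CCAAT words and no CHR word in the window.

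RefSeq promoter windows of 300 bases, from 250 before to 50 after the start, were matched for 35 of the 43 genes. They were not matched for Kif20a, Smc4, Aurkb, Ccna2, Foxm1, Incenp, Tpx2 and Cdc25c. Of the 35 windows, 82.9% held a CHR word and 77.1% a CCAAT word on either strand, and 71.4% held both. Among the windows of 10221 tested genes the shares were 19.2% for CHR, 38.9% for CCAAT and 7.72% for both. Both words stood in 3 of 5 windows of genes that were higher in the knockout tumors, in 5 of 7 windows of genes that were lower and in 17 of 23 windows of the remaining genes. Differences between these shares were not tested. TTTAAA reads the same on both strands, a CCAAT word can share its last base with a CHR word, and a match is a description of the letters and not of a bound site.

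Taken over all 43 genes, mitotic expression was nearly the same in both groups. At an adjusted p under 0.05 from limma, over the 13262 genes with an expression of 1 CPM (reads of a gene scaled to library size) or more in 4 or more tumors, 6 of the 43 genes (14%) were higher in the knockout tumors, 8 (18.6%) were lower and 29 did not pass the threshold. Of all tested genes 19.1% were higher and 20.7% were lower, so neither share of the mitotic genes stood above the background. The median log2 fold change was -0.02 over the 43 genes and -0.00 over all tested genes, and the median size of the change regardless of sign was 0.16 against 0.30. No mitotic gene changed 2-fold, where 6.25% of tested genes were at least 2-fold higher and 3.93% at least 2-fold lower with an adjusted p under 0.05. The 95% intervals of 42 genes lay within a 2-fold change in either direction, and those of 31 genes within 1.5-fold. Ccnb2 was the exception at 2-fold, with an upper bound of 1.03 on the log2 scale.

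The 14 calls were close to the threshold. Their adjusted p-values all lay between 0.01 and 0.05, the smallest being 0.0107 for Ncapg. The values of the 4 knockout tumors were all above those of the 4 scr tumors for Cdk1, Kif11, Nusap1 and Smc4, which is 9.30% of the genes against 17.8% of all tested genes. They were all below for Bub1, Bub3 and Ncapg, 6.98% against 19.3%, and the groups overlapped for the other 36 genes. When each tumor was left out in turn, Cdk1 and Nusap1 remained higher and Bub1, Bub3 and Ncapg remained lower in all 8 fits. The counts fell to 3 higher and 4 lower without scr tumor 3, to 4 lower without scr tumor 2 or scr tumor 4, to 5 lower without knockout tumor 1, to 3 lower without knockout tumor 3, and to 3 higher without knockout tumor 4. They rose to 8 higher without knockout tumor 1 and to 9 lower without knockout tumor 4, and were 4 and 6 without knockout tumor 2. Over these 8 fits the shares of all tested genes ranged from 15.3% to 19.2% higher and from 16.5% to 20.2% lower, with 15.3% and 16.7% without scr tumor 3.

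**Figure D1:**
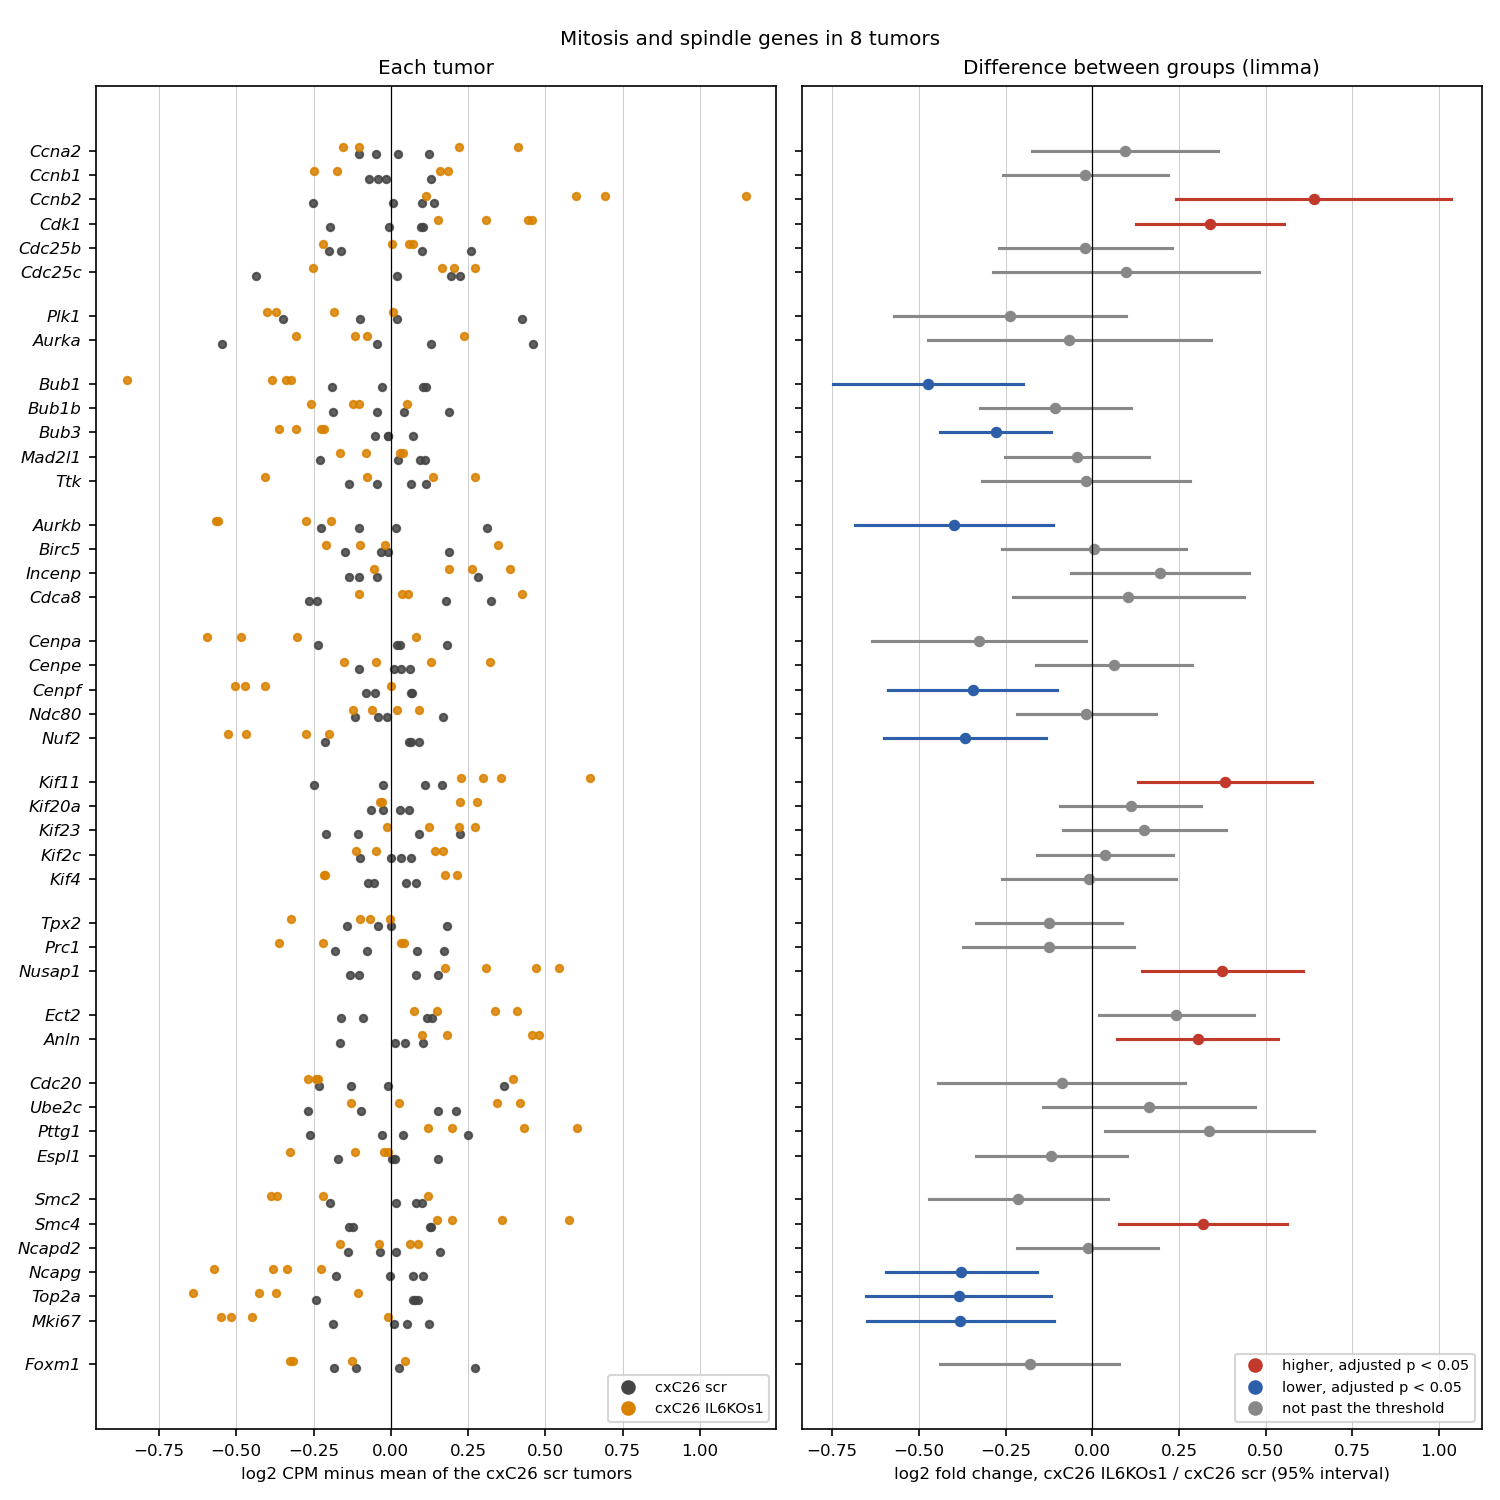
Mitosis and spindle genes in each tumor (left, log2 CPM minus the mean of the 4 cxC26 scr tumors) and the log2 fold change between groups with its 95% interval from limma (right), grouped by role. Points to the right of 0 are higher in the cxC26 IL6KOs1 tumors. Red marks the 6 genes called higher and blue the 8 called lower at an adjusted p under 0.05, and the other 29 intervals are grey.

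Cyclins, Cdk1 and the phosphatases that activate it comprised 6 genes, of which 2 were higher and none was lower. Ccnb2 (chr9:70407689-70421554), which encodes cyclin B2, had the largest change of all 43 genes. It measured 5.24, 5.2, 4.85 and 5.11 log2 CPM in cxC26 scr tumors 1 to 4 and 5.21, 6.25, 5.79 and 5.70 log2 CPM in cxC26 IL6KOs1 tumors 1 to 4. Knockout tumor 1 lay inside the scr range and knockout tumors 2 to 4 lay above it. The level went from 5.10 ± 0.18 to 5.74 ± 0.42 log2 CPM (SD, n = 4 each) (log2 fold change 0.64, SE 0.181, limma adjusted p = 0.0156). For Ccnb2 the limma adjusted p was 0.0509 without scr tumor 3.

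Cdk1 (chr10:69335146-69352912), the kinase that starts mitosis, measured 6.86, 7.16, 7.05 and 7.15 log2 CPM in cxC26 scr tumors 1 to 4 and 7.36, 7.51, 7.21 and 7.5 log2 CPM in cxC26 IL6KOs1 tumors 1 to 4. All knockout tumors were above all scr tumors (log2 fold change 0.34, SE 0.0976, limma adjusted p = 0.0163). Ccnb1 (chr13:100778739-100786486), encoding cyclin B1, the main partner of Cdk1 at entry into mitosis, measured 6.78, 6.98, 6.80 and 6.83 log2 CPM in cxC26 scr tumors 1 to 4 and 6.67, 7.01, 6.60 and 7.03 log2 CPM in cxC26 IL6KOs1 tumors 1 to 4. The knockout tumors fell on both sides of the scr tumors (log2 fold change -0.02, SE 0.109, limma adjusted p = 0.902), with an interval of the difference from -0.26 to 0.22. A processed copy of this gene in the table, Ccnb1-ps, had 20 to 40 reads per tumor against at least 1526 for Ccnb1. Ccna2, encoding the cyclin of S and G2 phase, and the phosphatases Cdc25b and Cdc25c did not pass the threshold, with log2 fold changes of 0.09, -0.02 and 0.10. Cdc25c was the gene of lowest expression, with at least 131 reads in each tumor.

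Plk1 and Aurora A, the kinases that mature the centrosomes, did not pass the threshold. Plk1 (chr7:122159435-122169884) measured 6.24, 5.83, 5.46 and 5.71 log2 CPM in cxC26 scr tumors 1 to 4 and 5.41, 5.82, 5.44 and 5.63 log2 CPM in cxC26 IL6KOs1 tumors 1 to 4. Scr tumor 1 was highest and the other scr tumors overlapped with the knockout tumors (log2 fold change -0.24, SE 0.153, limma adjusted p = 0.238), and without scr tumor 1 the log2 fold change was -0.0951. Aurka had a log2 fold change of -0.07 with an interval from -0.47 to 0.34, and its scr tumors ranged from 4.91 to 5.91 log2 CPM.

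Of 5 genes of the spindle assembly checkpoint 2 were lower and none was higher. Bub1 (chr2:127800197-127831859), the kinase that recruits the checkpoint to kinetochores, had the largest decrease of the 43 genes. It measured 6.15, 6.45, 6.31 and 6.44 log2 CPM in cxC26 scr tumors 1 to 4 and 6.01, 5.95, 5.48 and 6.0 log2 CPM in cxC26 IL6KOs1 tumors 1 to 4. All knockout tumors were below all scr tumors, with knockout tumor 3 lowest, and the level went from 6.34 ± 0.14 to 5.86 ± 0.25 log2 CPM (SD, n = 4 each) (log2 fold change -0.47, SE 0.126, limma adjusted p = 0.011).

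Bub3 (chr7:131560367-131571895), the partner that brings Bub1 and BubR1 to kinetochores, measured 7.21, 7.34, 7.25 and 7.26 log2 CPM in cxC26 scr tumors 1 to 4 and 6.90, 7.05, 7.04 and 6.96 log2 CPM in cxC26 IL6KOs1 tumors 1 to 4. Its groups did not overlap and its replicates were close together (log2 fold change -0.28, SE 0.0733, limma adjusted p = 0.0108). Bub1b, Mad2l1 and Ttk, which encode BubR1, Mad2 and the kinase Mps1 of the same checkpoint, had log2 fold changes of -0.11, -0.04 and -0.02 and did not pass the threshold.

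The chromosomal passenger complex corrects wrong attachments and guides cytokinesis. Of its 4 genes only Aurkb (chr11:69045624-69051664), the kinase subunit, passed the threshold. It measured 6.02, 5.73, 5.48 and 5.61 log2 CPM in cxC26 scr tumors 1 to 4 and 5.15, 5.51, 5.14 and 5.43 log2 CPM in cxC26 IL6KOs1 tumors 1 to 4. The knockout tumors were low, but scr tumor 3 lay within their range (log2 fold change -0.40, SE 0.131, limma adjusted p = 0.0308). For Aurkb the limma adjusted p was 0.0721 without scr tumor 1, 0.0658 without scr tumor 2, 0.0662 without knockout tumor 1 and 0.0885 without knockout tumor 3. Birc5 (survivin), Incenp (the scaffold) and Cdca8 (borealin) had log2 fold changes of 0.00, 0.20 and 0.10, each with an interval that included 0. The kinase and its scaffold thus had estimates of opposite sign, and the difference between them was not tested.

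Among 5 centromere and kinetochore genes 2 were lower. Nuf2 (chr1:169497934-169531464), a subunit of the Ndc80 complex that holds the microtubule, measured 5.47, 5.77, 5.74 and 5.75 log2 CPM in cxC26 scr tumors 1 to 4 and 5.21, 5.41, 5.15 and 5.48 log2 CPM in cxC26 IL6KOs1 tumors 1 to 4. Scr tumor 1 lay apart from the other scr tumors and within the knockout range (log2 fold change -0.37, SE 0.107, limma adjusted p = 0.0174). For Nuf2 the limma adjusted p was 0.0505 without scr tumor 2, 0.0506 without scr tumor 3, 0.052 without scr tumor 4 and 0.0565 without knockout tumor 3. Ndc80, which encodes the subunit that pairs with Nuf2, had a log2 fold change of -0.02 with an interval from -0.22 to 0.18.

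Cenpf (chr1:189640606-189688107), a large outer kinetochore protein, measured 6.78, 6.80, 6.93 and 6.92 log2 CPM in cxC26 scr tumors 1 to 4 and 6.39, 6.45, 6.35 and 6.86 log2 CPM in cxC26 IL6KOs1 tumors 1 to 4. Knockout tumor 4 lay within the scr range and the other knockout tumors below it (log2 fold change -0.34, SE 0.111, limma adjusted p = 0.0282). For Cenpf the limma adjusted p was 0.0746 without scr tumor 3, 0.0741 without scr tumor 4, 0.0627 without knockout tumor 1, 0.0619 without knockout tumor 2 and 0.0855 without knockout tumor 3. Cenpa, the centromeric histone, had a log2 fold change of -0.33 (SE 0.142, limma adjusted p = 0.0876) and Cenpe, a kinetochore motor, had 0.06, and neither passed the threshold.

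Of 5 mitotic kinesins Kif11 alone passed the threshold. Kif11 (chr19:37376382-37421863), the motor that pushes the spindle poles apart, measured 6.11, 6.33, 6.52 and 6.47 log2 CPM in cxC26 scr tumors 1 to 4 and 6.58, 6.71, 6.66 and 7.0 log2 CPM in cxC26 IL6KOs1 tumors 1 to 4. All knockout tumors were above all scr tumors, knockout tumor 4 most of all (log2 fold change 0.38, SE 0.115, limma adjusted p = 0.0207). For Kif11 the limma adjusted p was 0.0538 without knockout tumor 4. Kif23, Kif20a, Kif2c and Kif4, motors of cytokinesis, of microtubule depolymerization and of the chromosome arms, had log2 fold changes between -0.01 and 0.15.

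Among the 3 microtubule-associated proteins of the spindle, Nusap1 (chr2:119618298-119650165), which bundles microtubules near chromatin, was higher. It measured 5.40, 5.62, 5.43 and 5.69 log2 CPM in cxC26 scr tumors 1 to 4 and 5.71, 6.0, 5.84 and 6.08 log2 CPM in cxC26 IL6KOs1 tumors 1 to 4. The groups did not overlap (log2 fold change 0.37, SE 0.106, limma adjusted p = 0.0156), and the adjusted p stayed under 0.05 in all 18 alternative fits that were run. Exons of Nusap1 overlap by 172 bases with those of Oip5 on the other strand. Tpx2 and Prc1, which nucleate spindle microtubules and crosslink the central spindle, had log2 fold changes of -0.12 and -0.13 and did not pass the threshold.

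Both cytokinesis genes had positive values, and 1 passed. Anln (chr9:22331214-22389211), encoding anillin of the contractile ring, measured 8.18, 8.38, 8.35 and 8.44 log2 CPM in cxC26 scr tumors 1 to 4 and 8.52, 8.82, 8.44 and 8.79 log2 CPM in cxC26 IL6KOs1 tumors 1 to 4. Knockout tumor 3 lay just below the highest scr tumor and the other knockout tumors were above all scr tumors (log2 fold change 0.30, SE 0.106, limma adjusted p = 0.0398). For Anln the limma adjusted p was 0.0894 without scr tumor 1, 0.0641 without scr tumor 2, 0.0782 without scr tumor 3, 0.0512 without scr tumor 4, 0.0982 without knockout tumor 2 and 0.0967 without knockout tumor 4. Ect2, which activates RhoA at the cleavage furrow, had a log2 fold change of 0.24 (SE 0.102, limma adjusted p = 0.0796).

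None of the 4 genes of the anaphase-promoting complex axis passed the threshold. Pttg1 (chr11:43420244-43427463), encoding securin, measured 4.71, 4.92, 4.41 and 4.64 log2 CPM in cxC26 scr tumors 1 to 4 and 4.79, 5.27, 5.10 and 4.86 log2 CPM in cxC26 IL6KOs1 tumors 1 to 4. The groups overlapped (log2 fold change 0.34, SE 0.138, limma adjusted p = 0.0712). For Pttg1 the limma adjusted p was 0.0424 without scr tumor 2 and 0.0367 without knockout tumor 1. Cdc20, which activates the complex, had a log2 fold change of -0.09, the ubiquitin-conjugating enzyme Ube2c 0.16, and separase, encoded by Espl1, -0.12. Securin and separase, an inhibitor and its target, thus had estimates on opposite sides of 0, and the difference between them was not tested.

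Condensins and chromosome structure had 1 gene higher and 3 lower of 6, beside 19.1% and 20.7% of all tested genes. Differences between role groups were not tested. Smc4 (chr3:69004738-69034623), a core ATPase of condensin, measured 7.90, 8.15, 7.89 and 8.15 log2 CPM in cxC26 scr tumors 1 to 4 and 8.17, 8.60, 8.22 and 8.38 log2 CPM in cxC26 IL6KOs1 tumors 1 to 4. The groups did not overlap, although the lowest knockout tumor was only just above the highest scr tumor (log2 fold change 0.32, SE 0.111, limma adjusted p = 0.0379). For Smc4 the limma adjusted p was 0.0834 without scr tumor 1, 0.109 without scr tumor 3, 0.0953 without knockout tumor 2 and 0.0733 without knockout tumor 4. Smc2, the ATPase that pairs with it, had a log2 fold change of -0.21 with an interval from -0.47 to 0.04.

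Ncapg (chr5:45669891-45700547), a regulatory subunit of condensin I, measured 5.83, 6.11, 6.01 and 6.08 log2 CPM in cxC26 scr tumors 1 to 4 and 5.63, 5.67, 5.44 and 5.78 log2 CPM in cxC26 IL6KOs1 tumors 1 to 4. All knockout tumors were below all scr tumors (log2 fold change -0.38, SE 0.0995, limma adjusted p = 0.0107). The exons of Ncapg overlap by 944 bases with those of Lcorl on the other strand. Ncapd2, another subunit of condensin I, had a log2 fold change of -0.01.

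Top2a (chr11:98992947-99024199), the topoisomerase that untangles sister chromatids, measured 9.06, 9.38, 9.37 and 9.39 log2 CPM in cxC26 scr tumors 1 to 4 and 8.93, 8.87, 8.66 and 9.19 log2 CPM in cxC26 IL6KOs1 tumors 1 to 4. Scr tumor 1 lay below the other scr tumors and within the knockout range (log2 fold change -0.39, SE 0.122, limma adjusted p = 0.0265). For Top2a the limma adjusted p was 0.068 without scr tumor 2, 0.0711 without scr tumor 3, 0.0729 without scr tumor 4, 0.0515 without knockout tumor 2 and 0.0867 without knockout tumor 3. Mki67 (chr7:135689784-135716450), which coats mitotic chromosomes and is the protein stained as Ki-67, measured 8.23, 8.43, 8.54 and 8.47 log2 CPM in cxC26 scr tumors 1 to 4 and 7.91, 7.97, 7.87 and 8.41 log2 CPM in cxC26 IL6KOs1 tumors 1 to 4. Knockout tumor 4 lay within the scr range and the other knockout tumors below it (log2 fold change -0.38, SE 0.123, limma adjusted p = 0.0287). The adjusted p of Mki67 was above 0.05 in 11 of 18 alternative fits, 6 of which left out a single tumor. For Mki67 the limma adjusted p was 0.0606 without scr tumor 2, 0.0827 without scr tumor 3, 0.0717 without scr tumor 4, 0.0632 without knockout tumor 1, 0.0615 without knockout tumor 2 and 0.0869 without knockout tumor 3.

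Foxm1 (chr6:128362994-128375886), a transcription factor of the late cell cycle genes, measured 6.60, 6.36, 6.22 and 6.15 log2 CPM in cxC26 scr tumors 1 to 4 and 6.0, 6.20, 6.01 and 6.38 log2 CPM in cxC26 IL6KOs1 tumors 1 to 4. The groups overlapped and the gene did not pass the threshold (log2 fold change -0.18, SE 0.118, limma adjusted p = 0.245). Without scr tumor 1 its log2 fold change was -0.0902.

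Expressed per length, as CPM per kilobase of exon, the genes spanned a wide range of levels. The length joins all annotated exons of a gene over its transcripts, so the order of genes depends also on the annotation. Cdc20 was at 73.9 in the scr and 70.1 in the knockout tumors and Top2a at 70.3 and 54.0, while Smc4 was at 50.1 and 62.8. At the other end Cdc25c was at 2.58 and 2.75. On this scale Top2a was the second most abundant of the 43 genes in the scr tumors and stood below Smc4 in the knockout tumors.

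The strand setting of the counting is not given in the sources used here, so reads of overlapping genes may be shared. Exons of 15 of the 43 genes overlap another gene, most widely Kif20a with Cdc23 (1271 bases), Ncapg with Lcorl, Prc1 with Rccd1 (911 bases) and Kif4 with Pdzd11 (832 bases), all on the other strand. Top2a shares 122 bases on its own strand with Gm23451.

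The tumors of a group differed in the level of these genes, and the genes did not all move together. The mean log2 CPM of the 43 genes was 6.44, 6.53, 6.32 and 6.45 in scr tumors 1 to 4 and 6.31, 6.57, 6.26 and 6.52 in knockout tumors 1 to 4. The group means were 6.44 ± 0.08 and 6.42 ± 0.15 (SD, n = 4 each), and differed by less than either SD. Knockout tumor 2 had the highest value of its group for 25 genes and knockout tumor 3 the lowest for 25. In the scr group tumor 2 was highest for 21 genes, and tumor 3 was lowest for 22 and tumor 1 for 19. Scr tumor 1 was also the highest of its group for 13 genes. The 43 genes took 0.488 ± 0.028% of the reads in the scr tumors and 0.475 ± 0.048% in the knockout tumors (SD, n = 4 each).

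**Figure D2:**
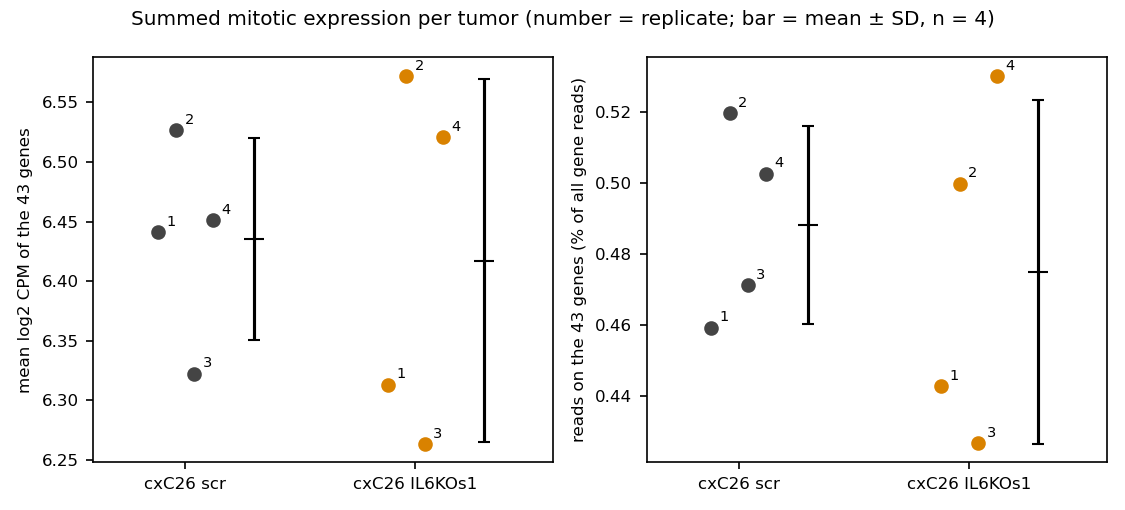
Mean log2 CPM of the 43 mitosis and spindle genes (left) and their share of all reads on genes (right) in each tumor, with the mean and SD of each group (n = 4). The group means of 6.44 and 6.42 lie within each other's error bars, and knockout tumors 1 and 3 lie below knockout tumors 2 and 4 in both panels.

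Since the mean level of the 43 genes differed among tumors, ratios of pairs of genes within a tumor were also computed. The pairs were chosen after their values had been seen, and no test is given. Kif11 relative to Top2a was -2.94 ± 0.08 on the log2 scale in the scr tumors and -2.17 ± 0.14 in the knockout tumors. Cdk1 relative to Mki67 was -1.37 ± 0.10 and -0.65 ± 0.20, and Smc4 relative to Ncapg was 2.02 ± 0.09 and 2.71 ± 0.17. Smc4 relative to Smc2, its partner in condensin, was 0.58 ± 0.10 and 1.11 ± 0.23 (SD, n = 4 in each group). For these 4 ratios the groups did not overlap, which the choice of the pairs by their values favoured. Ccnb2 relative to Ccnb1 was -1.75 ± 0.17 and -1.09 ± 0.36 (SD, n = 4 each), with knockout tumor 1 at -1.46 and scr tumor 1 at -1.54.

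Most of the called genes changed in the direction of neighbouring genes on the same chromosome. For each of the 43 genes the tested genes within 5 Mb were taken and the median of their log2 fold changes was computed. Of the 14 called genes 13 had the sign of their neighbours, the exception being Anln at 0.30 with a neighbour median of -0.14. The neighbour medians ranged from -0.37 to -0.13 around the 8 lower genes and from -0.14 to 0.39 around the 6 higher genes. Around the 29 genes that were not called they ranged from -0.40 to 0.54, and 16 of them were negative. Signs among these genes went both ways, as for Incenp (0.20, neighbour median 0.35) and Pttg1 (0.34, neighbour median -0.21). The share of all tested genes with the sign of their neighbours was not computed, so the 13 of 14 is not shown to be particular to these genes. Across the 43 genes Pearson's r between the change of a gene and its neighbour median was 0.52 and Spearman's rho 0.54. Across 12917 tested genes they were 0.25 and 0.36. These correlations run across genes of the same 8 libraries, neighbouring genes share neighbours, and genes are not independent replicates. The tested genes include weakly expressed ones, and no correlation over genes of matched expression was computed.

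Many of the called genes lie on chromosomes whose tested genes had a median log2 fold change of the same sign. The spread of changes within a chromosome was not computed. Medians were small on chromosome 9 (0.02), with Ccnb2 and Anln, and on chromosome 2 (-0.08), with Nusap1 and Bub1. Kif11, at 0.38, lies on chromosome 19, where the median of 470 tested genes was 0.33, and Incenp on the same chromosome had 0.20. Cdk1, at 0.34, lies on chromosome 10 with a median of 0.32. Cenpf, at -0.34, and Nuf2, at -0.37, lie on chromosome 1 with a median of -0.34. Bub3, at -0.28, and Mki67, at -0.38, lie on chromosome 7 with a median of -0.27, as do Plk1 at -0.24 and Prc1 at -0.13. Ncapg, at -0.38, lies on chromosome 5 with a median of -0.24. In contrast, Ccnb2 at 0.64 and Nusap1 at 0.37 had neighbour medians of 0.09 and 0.02, and Mad2l1 at -0.04 had one of 0.54. On chromosome 11, with a median of -0.15, Aurkb and Top2a were lower, whereas Birc5 was at 0.00 and Pttg1 at 0.34.

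**Figure D3:**
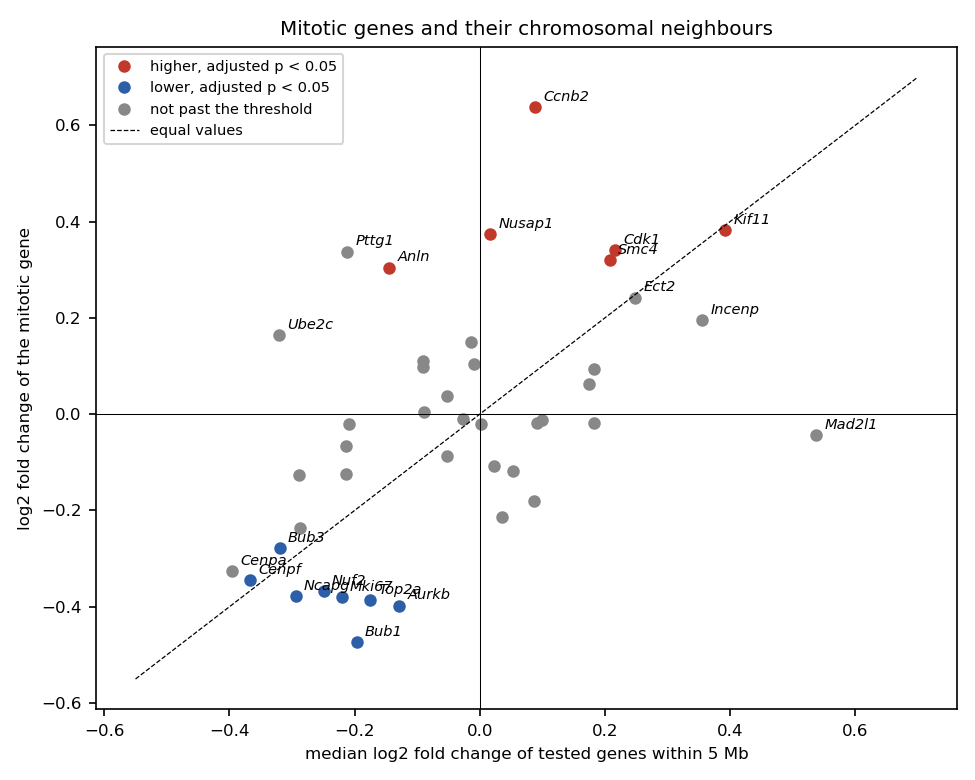
Log2 fold change of each of the 43 mitosis and spindle genes (vertical axis) against the median of its tested neighbours within 5 Mb (horizontal axis). Dashes mark equal values, red the genes called higher and blue the genes called lower. All 8 lower genes have a negative neighbour median, Kif11 lies on the line, and Ccnb2, Nusap1, Anln and Pttg1 lie well above it.

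When the median deviation of each chromosome was removed from each tumor before the fit, 4 of the 43 genes were higher and 1 was lower, beside 16.7% and 16.3% of 12998 tested genes. Ccnb2 (0.65), Nusap1 (0.45) and Anln (0.31) remained higher and Bub1 (-0.39) remained lower, and Pttg1 (0.49) joined them. Kif11, Cdk1, Smc4, Aurkb, Top2a, Mki67, Ncapg, Nuf2, Bub3 and Cenpf lost their calls, with log2 fold changes between -0.25 and 0.14. With the median of neighbours within 5 Mb removed instead, an analysis chosen after seeing the data, 5 genes were higher (Ccnb2, Nusap1, Anln, Ube2c and Pttg1) and 1 was lower (Mad2l1), beside 16.3% and 15.6% of tested genes. Bub1 was then at -0.28 (limma adjusted p = 0.0939). Because the knockout tumors descend from a single subclone, chromosomal differences between clones and the loss of IL-6 cannot be told apart.

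Other genes of the cell cycle were examined in 9 lists with no gene in common with the 43, which held 164 tested genes. Of these, 15 (9.15%) were higher and 40 (24.4%) were lower in the knockout tumors, where 19.1% and 20.7% of all tested genes were called. The share called lower was 44.4% for G1 cyclins and their kinases and 43.5% for S phase replication genes, 35.0% for RB, E2F and MuvB regulators, 29.4% for the anaphase-promoting complex core and 25% (1 of 4) for CDK inhibitors. It was between 11.1% and 18.8% for the lists of kinetochore, of spindle, of condensin and cohesin, and of checkpoint genes. Differences between lists were not tested.

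The core of the anaphase-promoting complex and its regulators had 3 genes higher and 5 lower of 17, with a median log2 fold change of -0.09. The largest subunit, Anapc1, was lower (-0.61, SE 0.113, limma adjusted p = 0.00140), as was Anapc4 (-0.50), and the inhibitor Fbxo5 (Emi1) was higher (0.49). Of 32 other kinetochore genes 2 were higher and 5 lower (median -0.02). Hjurp, the chaperone that loads Cenpa, was lower with 428 to 452 reads in the scr and 245 to 274 reads in the knockout tumors (-0.72, SE 0.107, limma adjusted p = 0.000397). Cenpc1, which links centromere to kinetochore, was lower (-0.51), and Cenpw was higher (0.52).

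Of 36 other spindle and cytokinesis genes 3 were higher and 4 lower (median -0.01). Cep55, a scaffold of abscission, was higher in all 4 knockout tumors (0.65, SE 0.110, limma adjusted p = 0.000816), Cdkn3 was higher (0.51) and the kinesin Kif14 lower (-0.45). Of 16 other condensin and cohesin genes 2 were higher and 3 lower (median 0.01). The cohesin ATPase Smc3 was higher (0.47), and the cohesin regulator Pds5a (-0.56) and the condensin II subunit Ncapd3 (-0.46) were lower.

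Replication genes of S phase had 1 gene higher and 10 lower of 23 (median -0.22). Tyms, which makes thymidylate, was lower (-0.53), as were the helicase subunits Mcm3 (-0.51) and Mcm7 (-0.45), with no overlap between groups for these 3. With chromosome medians removed 4 of the 23 genes were lower and 1 was higher, beside 16.3% and 16.7% of all tested genes. Of 9 G1 cyclins and their kinases none was higher and 4 were lower (median -0.10). Cdk6 had 292 to 455 reads in the scr and 91 to 175 reads in the knockout tumors (-1.35, SE 0.198, limma adjusted p = 0.000351), and Ccne1 (-0.91) and the phosphatase Cdc25a (-0.77) were lower too. With chromosome medians removed 5 of these 9 genes were lower, beside 16.3% of all tested genes.

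Among 20 genes of RB, E2F and MuvB, the regulators of the cell cycle promoters, 2 were higher and 7 lower (median -0.12). Mybl2, which encodes B-Myb, was lower (-0.65, SE 0.132, limma adjusted p = 0.00251), with 577 to 770 reads in the scr and 316 to 479 in the knockout tumors, and E2f1 was lower (-0.41) while E2f2 was higher (0.57). Of 7 CDK inhibitors 4 were tested. Cdkn1a (p21) was lower (-0.52) and Cdkn2c (p18) higher (0.35). Of 7 checkpoint kinases of G2/M and their partners Chek2 was higher (0.43) and Clspn lower (-0.30), with a median of 0.20.

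**Figure D4:**
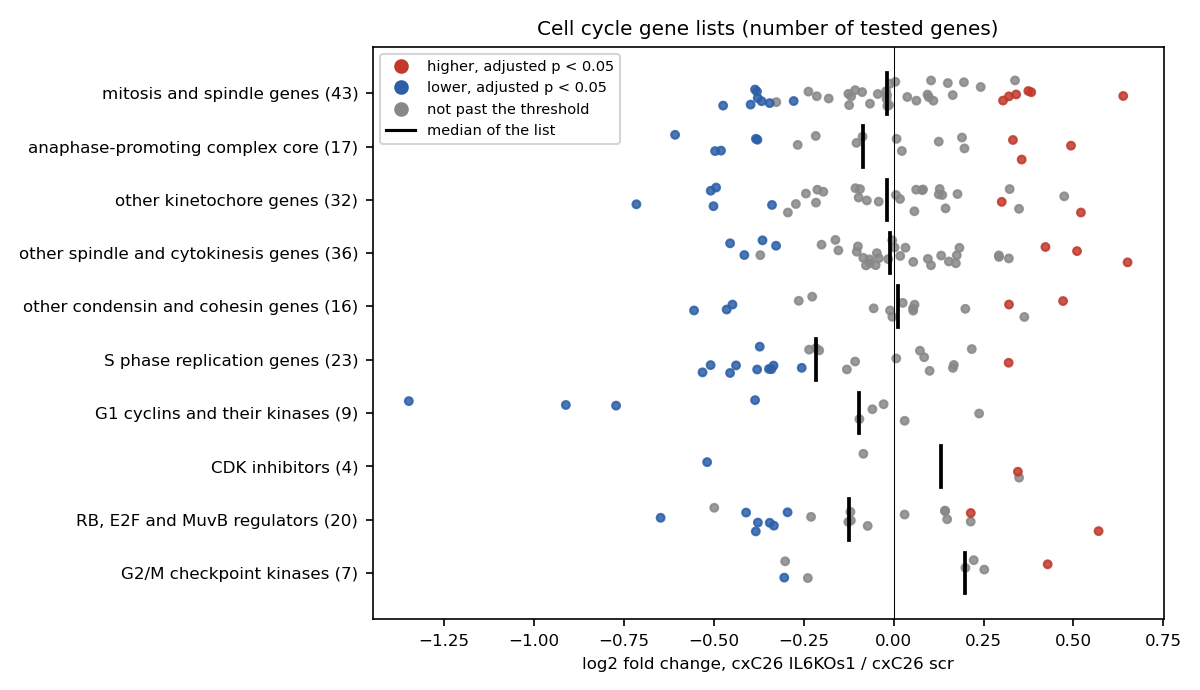
Log2 fold change of each tested gene in the 43 mitosis and spindle genes and in 9 other cell cycle lists, with the number of tested genes in brackets and a black bar at each median. Medians are -0.02 for the mitosis and spindle genes, -0.22 for S phase replication genes and -0.10 for G1 cyclins and their kinases, whose lowest point is Cdk6 at -1.35.

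The content of other cell types differed between the groups. All 8 pan-leukocyte markers were higher in the knockout tumors, and their summed level was 235 to 274 CPM in the scr and 466 to 886 CPM in the knockout tumors. All 8 macrophage markers were higher, with sums of 569 to 760 and 1060 to 1875 CPM. Of 12 markers of T and NK cells 9 were tested and all 9 were higher, with sums of 3.7 to 9.7 and 22.4 to 60.8 CPM. Of the 8 markers of B and plasma cells 3 of 4 tested were higher, and of 8 neutrophil markers 1 of 4 tested was higher and 1 lower, with Ly6g at 3 reads or fewer in every tumor. Cd3g, Cd2, Trac, Cd8a, Nkg7 and Jchain reached 1 CPM only in knockout tumors. Their direction was thus fixed by passing the filter, and their calls add no support to these counts. The sums include the untested markers. Of 8 fibroblast markers 2 were higher and 3 lower and of 8 endothelial markers 1 was lower, while none of the tested erythroid or of the muscle and skin markers was called. Leukocytes also divide, and their part in the mitotic values was not tested. The pan-leukocyte sum was 886, 466, 561 and 574 CPM in knockout tumors 1 to 4. The means over the 43 genes in the same tumors were 6.31, 6.57, 6.26 and 6.52 log2 CPM. A relation between these values was not tested.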

How the data were processed

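Tumors were assigned to groups by their titles (n = 4 each). After read trimming (Trimmomatic), alignment to mm10 (Hisat2) and counting (featureCounts), the authors deposited log2 CPM from limma-voom. The submitters' notes also name bcl2fastq 2.17. Other versions, the annotation and the strand setting are not given in the sources used here. Inverting the voom offsets gave whole reads for 100% of values within 0.05 reads or 0.0001 of the value. The table holds 27179 genes, 1319 of them without a symbol.

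The deposited values were fitted with limma 3.58.1 in R 4.3.3 (lmFit, eBayes with trend, no covariates), with Benjamini-Hochberg adjustment over the 13262 genes that reached 1 CPM in 4 or more tumors and a threshold of 0.05. The fit was tested on simulated data. The labels do not say that each tumor came from its own mouse, and p-values measure the spread between these tumors. All genes of the list were counted. Values per tumor were printed for the 6 largest calls in each direction, for Mki67, Top2a, Cdk1, Ccnb1, Foxm1, Plk1, Aurkb and Bub1, and for the largest change of each role, and those of Bub3 and Cenpf were added as the remaining calls. From other lists up to 3 called genes of largest change were named. The genes, lists and tests were chosen with earlier results of these data known.

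Positions and promoters came from RefSeq (GRCm38.p6), with the first listed window of each gene, and exon lengths and overlaps from GENCODE M21. Alternatives were other filters, normalizations, variance models, weights and pseudocounts, a replicate block, each tumor left out, a 2-fold threshold and removal of chromosome medians.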

Additional observations from a re-analysis of the deposited data

Results flagged for a closer look

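In 88 groups of 4 values (43 genes and their mean, in 2 groups of tumors), 4 had a tumor whose gap to the nearest of the others was above Dixon's 95% critical share of the range. About 1 group in 20 is expected to do so by chance, which is 4.4 of 88.

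Bub1 was at 5.48 log2 CPM in knockout tumor 3 and between 5.95 and 6.01 in the other knockout tumors. Top2a was at 9.06 log2 CPM in scr tumor 1 and between 9.37 and 9.39 in the other scr tumors. Nuf2 was at 5.47 log2 CPM in the same scr tumor 1 and between 5.74 and 5.77 in the others. Cdc20 was at 7.49 log2 CPM in knockout tumor 2 and between 6.82 and 6.86 in the other knockout tumors.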

How the results depend on the processing

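The 6 higher and 8 lower calls among the 43 genes were unchanged when genes with a mean under 3 log2 CPM were left out, with re-centring by the median, with voom weights and with a pseudocount of 1 CPM. Without a filter on low values 2 genes were higher and 4 lower, with 27179 genes tested, 2112 of them higher and 2301 lower. Without the mean-variance trend 4 genes were higher, without Smc4 and Anln, and 5 were lower, beside 17.7% and 19.3% of all tested genes. At a 2-fold threshold in addition to the adjusted p 0 were higher and 0 lower, beside 6.25% and 3.93% of all tested genes. With chromosome medians removed 1 gene was lower and Plk1 turned to 0.0296. Of the 164 genes of the other lists 7 were then higher and 26 lower in place of 15 and 40. The shares of all tested genes were 16.7% and 16.3%. With neighbour medians removed (chosen after seeing the data) 1 gene was lower. Of the 164 genes 5 and 24 were called, beside 16.3% and 15.6% of all tested genes. Kif11 (-0.0184), Ncapg (0.0064), Plk1 (0.0596), Bub3 (0.0218) and Cenpf (0.0454) turned sign. Under quantile normalization Ect2 joined the 6 higher genes, and 6 of the 8 lower genes remained, without Mki67 and Cenpf. The shares of all tested genes were then 18.8% and 20.6%, and Ccnb1 turned to 0.0302. The cause of these changes was not tested.

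Leaving out 1 tumor gave 3 to 8 genes higher and 3 to 9 lower, a median of -0.07 to 0.04, and 8 to 17 higher and 31 to 43 lower of the 164. The value of 8 came without scr tumor 3 or knockout tumor 2. Ccnb1 ranged from -0.0881 to 0.057 and was positive without scr tumor 2, knockout tumor 1 or knockout tumor 3.

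The labels do not say whether same-numbered tumors of the groups belong together. The correlations of their deviations from the group means lay between -0.06 and 0.06. For tumors of different number they lay between -0.08 and 0.06. Such correlations over all tested genes do not settle whether tumors were paired. With the replicate number as a block 7 genes were higher and 8 lower (2477 and 2688 of all tested genes). With 4 tumors a group, the 95% intervals of genes that were not called reached from -0.64 to 0.64, so a missed threshold does not show equal levels.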
